A study of Ovis aries with 18 samples.

Results

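IL6 is the sheep gene for interleukin-6, and it was followed here across 18 microarrays of whole blood. Its probes were found through the gene accession in the array's annotation, and 1 of the 15008 non-control probes of the array, A_70_P039706, was assigned to it. That probe had 1 spot per array. Blood came from 6 healthy adult female sheep, and a sample of each animal's blood was given phosphate-buffered saline (PBS, the control), 1 µg of lipopolysaccharide (LPS) or 10 µg of monophosphoryl lipid A (MPLA), which made 3 treatments of 6 arrays each. Blood was drawn into lithium heparin and incubated outside the body for 90 minutes, and the PBS samples shared this handling. Both agents act on Toll-like receptor 4 (TLR4), and MPLA is a lipid A derivative of LPS that lacks a phosphate group. The labels give the amounts of LPS and MPLA without a volume, and the study's methods give the same figures per mL. The amounts differed, so the effects of the agent and of its amount cannot be told apart where one is set against the other. The human samples of the study were not analysed here.

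Interleukin-6 is a secreted cytokine made early by monocytes and macrophages that meet bacterial products, and by many other cells. It binds the receptor IL6R together with the shared signal chain gp130, encoded by IL6ST, and acts through JAK kinases and STAT3. In the liver it drives the acute phase response, and in sepsis its level in plasma is a common marker of severity. Its transcription is switched on through NF-kB and C/EBP factors, and its mRNA is short-lived because proteins such as tristetraprolin mark it for decay.

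The arrays differed in how bright they were as a whole. Each spot has a processed signal, which is its brightness after the scanner software subtracts background, and the 75th percentile of that signal ran from 24.8 to 124.2 across the 18 arrays. The software marked 23.9% to 45.1% of non-control probes as well above background, and no probe was saturated. Levels are therefore given as log2 of the processed signal over the 75th percentile of its own array, where 0 is a signal equal to that percentile. Genes of blood cells were present as labelled: the monocyte genes CD14 and LYZ, the T cell genes CD3D and CD3E, the NK cell gene GNLY and the red cell gene HBB were well above background on all 18 arrays. The neutrophil, B cell and platelet marker lists had no named probe. In whole blood, a change in the number of cells of a type and a change in RNA per cell cannot be told apart.

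IL6 was not well above background in any PBS array and was well above background in 6 of 6 LPS arrays and 6 of 6 MPLA arrays. In PBS the processed signal of IL6 was 3.51 at the lowest, 5.40 at the median and 20.2 at the highest, in scanner units. In LPS it was 38.3 at the lowest, 153.7 at the median and 426.5 at the highest. In MPLA it was 50.7 at the lowest, 89.1 at the median and 138.3 at the highest. The dimmest stimulated array, that of animal 51Y with LPS, was brighter than the brightest PBS array, so the PBS values did not overlap those of either agonist.

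The PBS values carried little information on how far below detection IL6 lay. On 5 of the 6 PBS arrays the processed signal was the fill value that the software gives to every spot whose signal is not positive and significant. The same fill value stood for 32.1% to 52.8% of non-control spots on an array. The exception was animal 71Y, whose PBS spot at 20.2 was positive and significant but not well above background. The raw median brightness of the IL6 spot, less the median of that array's negative control spots, was between −3.50 and 20.0 in PBS, with a median of 1.5. In LPS the same quantity was between 35.0 and 433.5 with a median of 155.0, and in MPLA it was between 56.0 and 136.0 with a median of 85.3. After that subtraction every stimulated array was above every PBS array. Before it the raw median of the LPS array of animal 51Y, at 104, was below those of the PBS arrays of animals 170 (110) and 71Y (108.5). The software's own error of the IL6 signal was 10.0% to 13.6% of the signal in LPS and 10.2% to 12.4% in MPLA, against 33.2% for the PBS array of animal 71Y and a median of 98.6% over the PBS arrays.

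**Figure D1:**
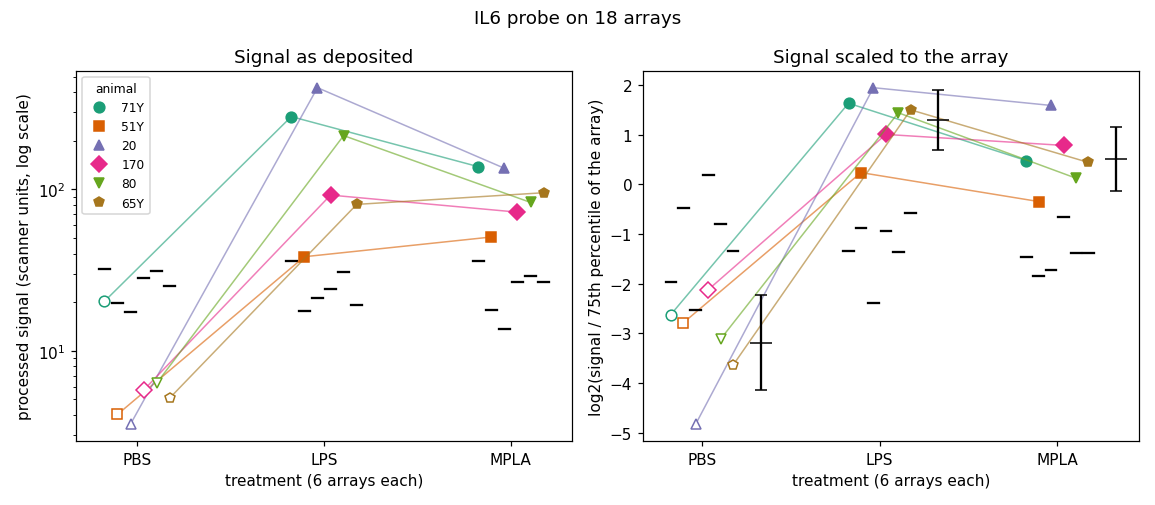
The IL6 probe on 18 arrays (6 animals, 3 treatments). The left panel shows the processed signal in scanner units on a log axis, the right panel log2 of the signal over the array's 75th percentile, with mean and SD beside each treatment; lines join the arrays of one animal, open symbols are spots not well above background, and short dashes give the dimmest signal of any probe marked well above background on that array. All 6 PBS symbols are open and lie below both agonists; from LPS to MPLA the scaled level is lower in 6 of 6 animals, while the deposited signal is higher in animals 51Y and 65Y.

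IL6 rose with LPS. The scaled log2 level of IL6 was −3.18 ± 0.95 in PBS and 1.29 ± 0.60 in LPS (mean ± SD, n = 6 each). The change within animals was 4.47 ± 1.39 on the log2 scale (SD, n = 6), with a 95% confidence interval of the mean from 3.49 to 5.45, and it was an increase in 6 of 6 animals. With limma and animal as a block, the Benjamini-Hochberg adjusted p was 0.00054 over the 4122 probes tested. Of those probes 37, or 0.898%, were called at an adjusted p under 0.05, 33 of them higher and 4 lower with LPS. IL6 entered the test through the LPS and MPLA arrays, where it was detected. In 28 probes, 0.679% of those tested, all 6 LPS levels were above all 6 PBS levels, and IL6 was among them. An exact sign-flip test, two-sided and over 6 animals, gave p = 0.031, which is the smallest it can give. IL6 was detected on every LPS array and on no PBS array. The sign-flip p and the separation of levels therefore add little beyond detection.

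The size of that rise is known only as a lower bound, because IL6 was undetected in PBS. The fitted change corresponds to 22.2-fold, but its denominator is mostly the fill value. Each PBS array was therefore given a detection level for IL6, the dimmest signal of any of its probes marked well above background, or the IL6 signal itself where higher. Against that level IL6 was at least 5.45-fold higher with LPS. Per animal the bound was 22.1-fold in animal 20, 12-fold in 71Y, 7.12-fold in 65Y, 4.74-fold in 80, 1.77-fold in 170 and 1.65-fold in 51Y. Animals 51Y and 170 thus had a signal with LPS that was less than 2-fold above what their own PBS arrays could detect. The corresponding ratios to the deposited PBS signal ran from 8.11 in animal 51Y to 108.6 in animal 20, and animal 20 had the dimmest PBS fill value relative to its array, at 3.54% of the 75th percentile.

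IL6 rose with MPLA as well. The scaled log2 level with MPLA was 0.51 ± 0.65 (SD, n = 6), against the same PBS arrays. The change within animals was 3.69 ± 1.43 (SD, n = 6; 95% confidence interval 2.71 to 4.68), again an increase in 6 of 6 animals. The limma adjusted p was 0.0018. Of 4122 probes 41, or 0.995%, were called, 31 higher and 10 lower with MPLA, and IL6 was among those higher. The count depended on animal 20, without which 322 probes were called, IL6 included. In 25 probes, 0.607%, all 6 MPLA levels were above all 6 PBS levels, IL6 included. The exact sign-flip test again gave its smallest p, 0.031, and with the separation of levels it again adds little beyond detection.

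Against the detection level of the PBS arrays, IL6 was at least 3.17-fold higher with MPLA, where the fitted value was 12.9-fold. The bound was 17.2-fold in animal 20, 5.40-fold in 71Y, 3.42-fold in 65Y, 1.91-fold in 80, 1.52-fold in 170 and 1.1-fold in 51Y. In animal 51Y the MPLA signal therefore exceeded the PBS detection level by less than the software's error of that spot, 12.3% of its signal. When all values were raised to the detection level of their array before testing, the MPLA increase was 1.66 on the log2 scale and was no longer called (limma adjusted p = 0.23). The LPS increase was then 2.45 and was still called (limma adjusted p = 0.034). The comparisons with PBS share their PBS arrays, so they are not independent of each other.

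**Figure D2:**
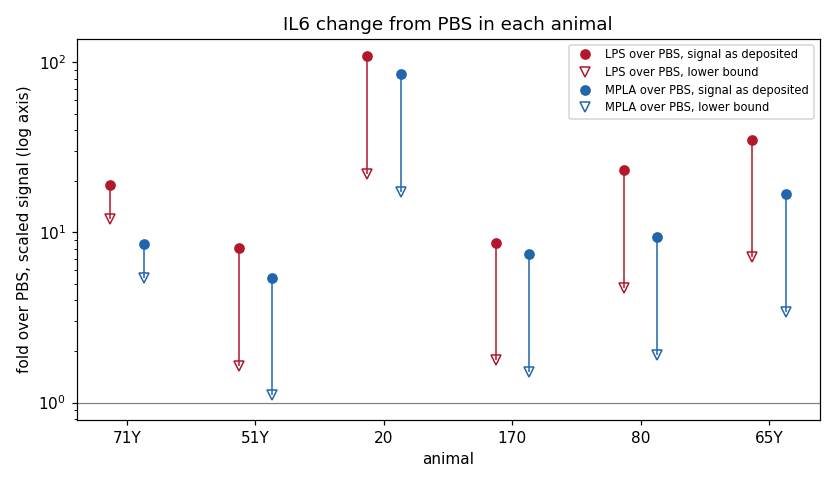
Fold of IL6 over PBS in each of 6 animals, on a log axis, from signals scaled to the 75th percentile of each array. Filled circles use the deposited PBS signal and open triangles the lower bound set by the detection level of that animal's PBS array; all bounds lie above 1, from 1.1 (animal 51Y, MPLA) to 22.1 (animal 20, LPS).

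IL6 was lower with MPLA at 10 µg than with LPS at 1 µg in 6 of 6 animals, and here both sides were measured above background. The difference within animals was −0.78 ± 0.45 on the log2 scale (SD, n = 6), a ratio of 0.582. Its 95% confidence interval ran from −1.23 to −0.33, or from 0.426 to 0.795 as a ratio. The exact two-sided sign-flip test gave p = 0.031, the smallest it can give. Benjamini-Hochberg adjustment over the 3 comparisons of IL6 left it at 0.031. All 3 had that same p, so the adjustment could not change it and was no further hurdle. Across all 4122 probes the limma adjusted p was 0.81 (unadjusted 0.0031), so IL6 was not called between the agonists. Of those probes 2, or 0.0485%, were called, both lower with MPLA, and without animal 20 there were 31. A decrease in 6 of 6 animals was seen in 76 probes, 1.84% of those tested, and the median probe differed by −0.08. IL6 had the 51st lowest change and the 15th smallest p.

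The animals differed in how far apart the agonists were. The difference, MPLA minus LPS, was −1.32 in animal 80, −1.15 in 71Y, −1.06 in 65Y, −0.58 in 51Y, −0.36 in 20 and −0.22 in 170. In 4 animals it exceeded 2 times the software's error of the difference (71Y, 51Y, 80 and 65Y). In animals 20 and 170 it did not, at 1.73 and 0.91 errors. That error covers the single spot on each array and not the blood culture or the amplification. Animal 20 had the highest scaled IL6 level with both agonists, 1.94 with LPS and 1.58 with MPLA, and animal 51Y the lowest, 0.23 and −0.35. Over the 6 animals the scaled levels with LPS and with MPLA had a Pearson r of 0.74 (exact permutation p = 0.11) and a Spearman rho of 0.66 (exact permutation p = 0.18), the 1 such relation computed. Without animals 20 and 51Y the r was −0.63, so the positive value rested on them.

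In 2 animals the order of the agonists turned when arrays were not scaled to each other. In the deposited signal, with no scaling, IL6 with MPLA was 0.490 of its LPS signal in animal 71Y, 0.317 in 20, 0.784 in 170 and 0.385 in 80. It was 1.32 times the LPS signal in animal 51Y and 1.18 times in 65Y. In those 2 animals the whole MPLA array was brighter, with a 75th percentile 1.98 and 2.46 times that of the LPS array. The unscaled difference was −0.63 ± 0.86 (SD, n = 6), and the exact sign-flip test gave p = 0.19. Under each of the 7 scalings in the plot of MPLA against LPS, the MPLA level of IL6 lay below the LPS level in 6 of 6 animals, with means from −0.82 under quantile normalization to −0.46 under normexp background correction. Within slides, the difference was −1.15 on slide 1 (animal 71Y), −1.19 on slide 2 (80 and 65Y) and −0.47 on slide 3 (51Y and 20). The MPLA array of animal 170 was on another slide than its LPS and PBS arrays. On the same slides the LPS increase was 3.69 (71Y and 170), 4.84 and 4.89, and the MPLA increase 3.10, 3.66 and 4.42.

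**Figure D3:**
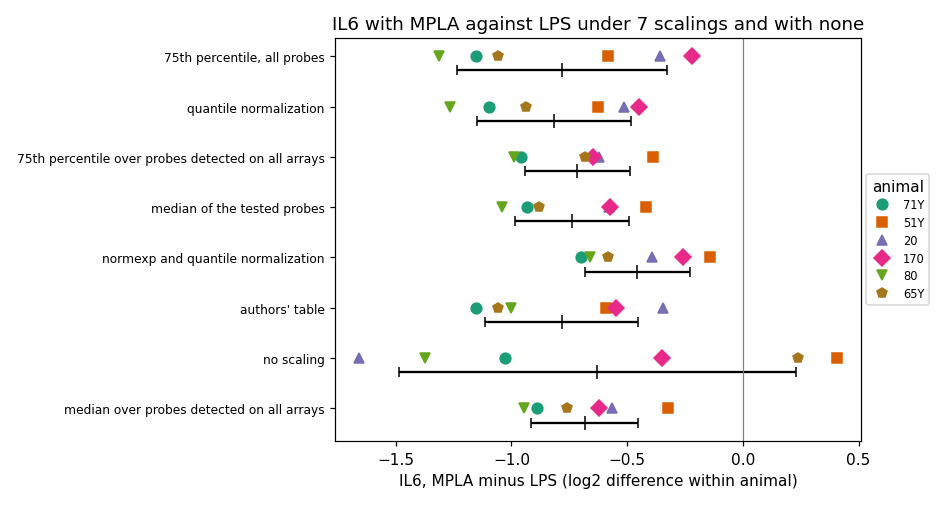
IL6 with MPLA minus IL6 with LPS in each of 6 animals (log2 difference) under 7 scalings and with no scaling; coloured symbols are animals, and the black bar under them is the mean with SD. All symbols lie below 0 under each of the 7 scalings, with means between −0.82 and −0.46, and with no scaling animals 51Y and 65Y lie above 0.

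IL6 was next set beside other cytokine genes of the same blood. Of 26 listed cytokines and chemokines 19 had a named probe and 9 were tested. With LPS 6 of the 9 rose: IL1A and IL1B, which encode the interleukin-1 agonists, TNF, IL10, which encodes a cytokine that restrains inflammation, the neutrophil chemokine gene CXCL1, and CSF2, which encodes GM-CSF. With MPLA 7 of the 9 rose, these 6 and INHBA, which encodes a subunit of activin A. Over all tested probes the share called was 0.898% with LPS and 0.995% with MPLA. IL1A, CSF2 and INHBA, like IL6, were not detected on all PBS arrays and were tested only through the groups where they were high. Of the 6 genes detected on all PBS arrays, 4 rose with each agonist (IL1B, TNF, IL10 and CXCL1), and CXCL8 and IL18 were not called. The median change of the 9 genes was 2.53 with LPS and 1.77 with MPLA, against −0.01 and −0.09 over all tested probes. That median includes IL1A, CSF2 and INHBA, so the detection filter favours it. In the 6 genes detected on all PBS arrays, changes ran from −0.28 (IL18) to 3.08 (IL10) with LPS. With MPLA they ran from −0.44 (IL18) to 3.60 (IL10). IL6 had the largest LPS change of the 10 cytokine genes plotted, followed by IL1A with 4.21 ± 0.94 (SD, n = 6; limma adjusted p = 0.00013). With MPLA the order was IL1A at 4.51 ± 0.97, CSF2 at 3.97 ± 1.79 and IL6 at 3.69 ± 1.43. These 3 genes were not well above background in any PBS array, so their changes share the limit given for IL6 and their order is not settled.

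The agonist difference of IL6 was compared with that of 4 of these genes, animal by animal. IL10 was 0.52 ± 0.53 higher with MPLA than with LPS, and higher in 5 of 6 animals. IL6 minus IL10 was −1.30 ± 0.74 and below 0 in 6 of 6 animals (exact sign-flip p = 0.031, adjusted over the 4 genes 0.125). TNF was lower with MPLA in 6 of 6 animals, as IL6 was, by a mean of −0.28 ± 0.22. IL6 minus TNF was −0.50 ± 0.57 and below 0 in 5 of 6 animals (exact p = 0.125, adjusted 0.22). IL1A and IL1B differed by 0.30 ± 1.39 and 0.09 ± 0.98 between the agonists. IL6 was below each of them in 4 of 6 animals (exact p = 0.22 and 0.19, both 0.22 adjusted). None of these 4 differences passed the threshold after adjustment. In the direct fit of MPLA against LPS, limma called none of the 9 cytokine genes, and 4 of them had an unadjusted p under 0.05. CXCL1 was −0.82 ± 0.54 and CXCL8, which encodes interleukin-8, was −0.58 ± 0.45, both lower with MPLA in 6 of 6 animals (limma adjusted p = 0.83 and 0.84).

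**Figure D4:**
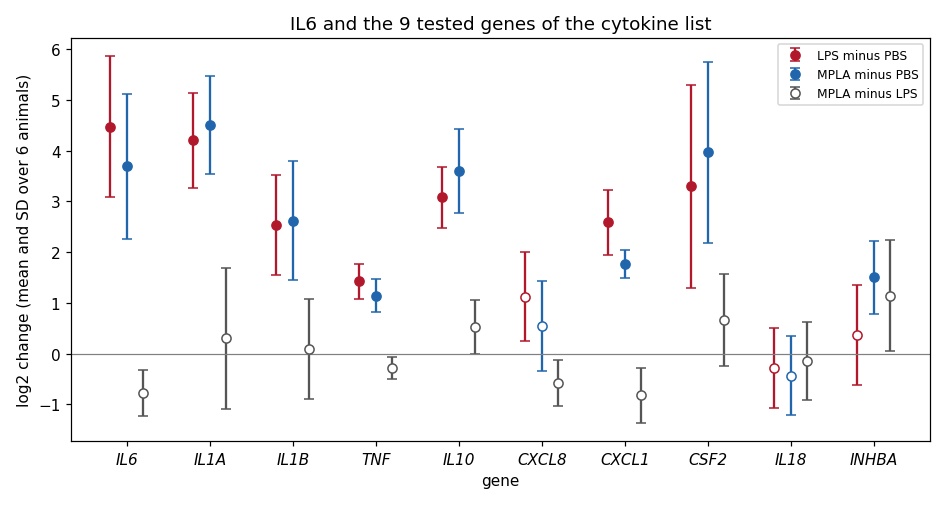
Mean log2 change over 6 animals with SD for IL6 and the 9 tested genes of the cytokine list, as LPS minus PBS, MPLA minus PBS and MPLA minus LPS; filled circles were called by limma at an adjusted p under 0.05. IL6 and 6 of the 9 genes are filled for LPS against PBS, IL6 and 7 of the 9 for MPLA against PBS, and no gene is filled for MPLA against LPS.

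The genes through which IL6 is switched on, sensed and acts were sparsely covered by the array. Of 14 listed genes of the TLR4 complex and its adaptors, which sense LPS and MPLA, 4 had a named probe and 2 were tested. CD14, the co-receptor that hands LPS to TLR4, differed by −0.32 ± 0.22 with LPS and −0.48 ± 0.35 with MPLA (limma adjusted p = 1.00 and 0.65). IRAK4, the kinase next to the adaptor MYD88, differed by 0.05 in each (limma adjusted p = 1.00 and 0.90). TLR4 itself was well above background on 1 array of each treatment and MYD88 on none, so neither was tested.

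Of 23 listed regulators of IL6 transcription and mRNA decay, 6 had a name from the annotation and 2 were tested. ZFP36 encodes tristetraprolin, and it differed by −0.07 ± 0.21 with LPS and −0.09 ± 0.31 with MPLA (limma adjusted p = 1.00 and 0.81). PPARG encodes a nuclear receptor known to dampen inflammatory transcription in macrophages. It had scaled levels of 0.73 to 2.07 in PBS, −0.31 to 0.75 in LPS and −0.34 to 0.71 in MPLA. PPARG fell in 6 of 6 animals with each agonist, with a log2 change of −1.12 ± 0.31 for LPS and −1.21 ± 0.41 for MPLA (limma adjusted p = 0.0084 for both). Between the agonists it differed by −0.09 ± 0.56. A further listed regulator, NFKBIZ, encodes the nuclear protein IkB-zeta, and its probe could be named only through a table the study made from these arrays. That table lists only genes that changed more than 1.5-fold, so a regulator could enter by this route only if it had changed. NFKBIZ rose by 2.61 ± 0.50 with LPS and by 1.79 ± 0.62 with MPLA (limma adjusted p = 0.00014 and 0.0029). The rise restates how NFKBIZ was found and is no independent test of it.

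Downstream of IL6 the array had little to show. Of 21 genes of the IL6 receptor and its signalling chain 3 had a named probe and 1 was tested, and of 13 related ligands and receptors 1 had a named probe and it was not tested. Of 21 known IL6 target genes 3 had a named probe and 1 was tested. That gene was MYC, a growth regulator and STAT3 target. MYC was detected in every LPS and MPLA sample but in only 5 PBS samples. Like IL6, it therefore entered the test through the stimulated groups, and the detection filter favours a rise over PBS. MYC was higher with LPS in 6 of 6 animals, by 0.82 ± 0.44 (limma adjusted p = 0.14), and differed by 0.21 ± 0.45 with MPLA (limma adjusted p = 0.68). It was −0.61 ± 0.54 with MPLA against LPS and lower in 6 of 6 animals (limma adjusted p = 0.84). The share of all tested probes that rose with LPS in 6 of 6 animals is not given here, so that count for MYC has no background to set it against.

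The probes whose pattern was most like that of IL6 were ranked by Pearson correlation over the 18 arrays, with the mean of each animal's 3 arrays subtracted. The correlation describes arrays that share treatments and animals. Its median over the 4121 other tested probes was 0.03, and 19 probes were above 0.9. The 10 highest lay between 0.986 and 0.940, and the next was at 0.939. The first was A_70_P035131 (r = 0.986), then A_70_P019681 (0.971) and A_70_P016701 (0.959), none of which had a gene name here. CLEC4E, which encodes the pattern recognition receptor Mincle, was there with 2 probes (0.952 and 0.951), and A_70_P005636 lay between them (0.951). NFKBIZ and TNF followed (0.947 each), then LOC101104661 (0.944) and a CXCL1 probe, A_70_P039397 (0.940). The names of CLEC4E and NFKBIZ came only from the study's table of genes that changed on these arrays, so naming favoured changed genes. A_70_P019681 was, like IL6, not well above background in any PBS array, and it differed by 5.29 ± 2.17 with LPS and 5.31 ± 1.64 with MPLA. When values were raised to the detection level of each array, 4 of these 10 probes were again among the 10 most alike, so which probes are named depended on how undetected values were treated. Both CLEC4E probes, TNF and the CXCL1 probe were among the 6 that left the list.

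Genes of blood cell types were read on the same arrays as IL6. In PBS, LPS and MPLA the scaled level of CD14 ran from 1.54 to 2.58, from 1.14 to 1.99 and from 0.66 to 2.08. The other marker genes, LYZ, CD3D, CD3E, GNLY and HBB, differed by at most 0.23 in either direction from PBS, and limma called none of the 6 marker genes in any comparison. At an unadjusted p under 0.05, 1 of the 6 passed, CD14 with MPLA against PBS. The housekeeping gene GAPDH differed by −0.11 ± 0.25 with LPS and by 0.22 ± 0.54 with MPLA (limma adjusted p = 1.00 and 0.69). ACTB, the other named housekeeping gene, was well above background on no array and was not tested. A probe that was not detected therefore need not mean that its gene was silent. The part of cell composition in the change of IL6 was not tested.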

How the data were processed

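Total RNA of stimulated whole blood was amplified, labelled and hybridised to a 1-colour Agilent sheep array. Per the labels, one of 2 amplification kits was used, and which array had which is not given in the sources used here. The authors deposited scanner intensities from Agilent Feature Extraction 11.5.1.1 (protocol GE1_1105_Oct12, per the file headers), with a background-subtracted processed signal and detection marks. They also deposited a table of ratios, each close to a probe's signal over the 75th percentile of its array, a scale worked out from the values.

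Replicate spots were averaged per probe. Each level is log2 of the processed signal over the 75th percentile of all non-control probes on that array. Probes well above background on all 6 arrays of at least 1 treatment were tested (4122 of 15008). Each pair of treatments was fitted with limma 3.58.1 in R 4.3.3 with animal as a fixed block, two-sided, and a probe was called when its p, adjusted by Benjamini-Hochberg, was under 0.05. Arrays are paired because the titles name the animal; same-animal deviations correlated at 0.59 on average over 18 pairs (lowest 0.13). IL6 alone was tested by exact sign-flips over 64 patterns (SciPy 1.17.1). The fit was checked on simulated data that held no fill values, so that check does not cover IL6 against PBS. Precision is set by how many arrays there are.

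Of 2200 probes with a RefSeq accession, 1265 matched a symbol in RefSeq's table for ARS-UI_Ramb_v3.0, a sheep assembly used for names only, which gave 944 symbols; the study's table named 7 more probes. The text names IL6, the 10 probes most like it and list genes with a tested probe, each by its brightest tested probe on average. TLR4, MYD88 and ACTB, which were not tested, are named for their detection only. IL6, the lists and the tests were chosen with earlier results of these data known. The tested gene of the receptor and signalling list is not reported here. Alternatives covered scaling, background, low values, filters, blocks, moderation, the methods' t-test and leaving out animals; no scaling and a median scaling over the 3236 probes detected on all arrays were chosen after seeing the data.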

Additional observations from a re-analysis of the deposited data

Results flagged for a closer look

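One IL6 value stood apart from its group. The PBS array of animal 71Y had a processed IL6 signal of 20.2, where the other 5 PBS arrays lay between 3.51 and 6.30, and its gap to the nearest of them was 0.833 of the range of the group (critical value 0.625 for 6 arrays). Those other 5 values were the software's fill values. Of 20 groups of IL6 values examined in this way 1 stood apart, and chance sets apart about 1 in 20. On the scaled log2 level the same array was at −2.62, inside the PBS range of −4.82 to −2.12.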

How the results depend on the processing

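The increase of IL6 over PBS kept its direction under each alternative run, 16 settings for LPS (1.52 under normexp to 4.68 under quantile normalization) and 17 for MPLA (1.06 to 3.88), and kept its call in 15 of each. The methods' t-test, paired by animal, gave 4.47 with LPS (adjusted p = 0.099) and 3.69 with MPLA (adjusted p = 0.17). At the study's threshold, a raw p under 0.05 with a change over 1.5-fold, that test passed 71, 92 and 52 probes for LPS, MPLA and MPLA against LPS, IL6 in each, and after Benjamini-Hochberg 10, 14 and 1. With values raised to the detection level MPLA gave 1.66 (adjusted p = 0.23). MPLA against LPS stayed uncalled in 17 of 17 settings (−0.89 to −0.46). Its exact sign-flip test was lost with no scaling (−0.63, p = 0.19). Without each animal the means ran from 4.01 to 4.76 for LPS, from 3.15 to 3.94 for MPLA and from −0.89 to −0.67 for MPLA against LPS; limma made the same calls, and the exact sign-flip p was 0.0625, the smallest that 5 animals allow. Of all tested probes, 41 were called between MPLA and PBS and 2 between MPLA and LPS; without animal 20 these were 322 and 31. With no filter on dim probes limma called 24 probes in the former comparison, and in the latter it called 0 to 4 over the settings that kept all animals (190 at an unadjusted p under 0.05 in the reported one). With no replicate block, that is without the pairing by animal, the changes were 4.47, 3.69 and −0.78 (limma adjusted p = 2.8e-05, 0.00022 and 1.00), which changed no call of IL6. A slide term was not run for LPS against PBS, because each pair lay on 1 slide. Of IL6 in PBS, the fill value limits what can be said to a bound.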
